A study of Rattus norvegicus with 6 samples.

Results

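The genes described are the small GTPases of the Rab, Arf and Arl families, the sorting nexins (Snx), the Sec genes of the secretory pathway, and partners named after them. They were taken by name: a probe belongs to the set where its RefSeq accession maps to a rat symbol that starts with Rab, Arl, Arf, Snx or Sec followed directly by a digit, and where its brightness above local background passed the limit set by the negative control spots on at least 3 of 6 arrays. This gave 72 genes, measured by 92 probes, of 21847 genes and unnamed probes tested, 5697 of which have a symbol. By name alone, 79 genes with 103 probes qualified. The 7 left out were Arl5b, above the limit on 2 arrays, Rab19 and Sec14l2, on 1 array each, and Arl10, Arl13a, Rab3b and Rab3c, on 0 arrays. Just inside the limit lay Arl9 and Rab15, on 3 arrays each. The members comprise 36 Rab genes, 6 Arf genes, 12 Arl genes, 10 sorting nexins and 8 Sec genes. The rule reads names and brightness, but it was set with earlier results of these data known, and it names Arl11, the member with the largest change.

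The RNA came from bone marrow cells of male rats aged 8 weeks, kept in culture under osteogenic conditions and sampled on day 10. The 3 control samples had no ultrasound, and the 3 LIPUS samples were treated with low-intensity pulsed ultrasound, a mechanical stimulus of short bursts of sound waves. Each sample was labelled with Cy3 and put on 1 single-colour Agilent array. The labels give neither rat strain nor ultrasound dose, and they do not say whether the replicates were separate animals or separate cultures, so p-values measure only the spread between these samples. Marrow cultures hold several cell types, and in such bulk RNA fewer cells of a type and less RNA per cell cannot be told apart.

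Membrane traffic moves proteins and lipids between compartments in vesicles and tubules. Rab and Arf family proteins are molecular switches that sit on a membrane when bound to GTP and recruit coats, motors, tethers and lipid enzymes there, and each compartment carries its own Rabs. Proteins made for secretion enter the endoplasmic reticulum (ER) through the Sec61 channel and leave it in vesicles coated by COPII, which is built from Sec23, Sec24, Sec13 and Sec31. Sorting nexins bind phosphoinositides on endosomes and sort cargo to recycling or degradation. Osteoblasts secrete large amounts of collagen and matrix proteins through this route, and macrophages and osteoclasts depend on endosomes and lysosomes.

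Levels are log2 intensities relative to the 75th percentile of the same array, and changes are LIPUS minus control, tested with limma, where a call means that p, adjusted by Benjamini-Hochberg over all features tested, was under 0.05. Probes above the background limit made up 53.5% to 61.9% of all probes on the 6 arrays, and the correlation of levels between any pair of arrays over the 72 members, which are not independent replicates, was 0.967 to 0.994. Judged by the tilt of the scanned grid, control 1 and control 2 lay on one slide, and control 3 lay on another with the 3 LIPUS arrays; the labels give no slide. A fit with slide as a fixed block therefore takes its contrast from control 3 alone against the LIPUS arrays, and control 1 and control 2 add only to its estimate of the spread. The member levels on control 3 differed by over 0.5 from the mean of control 1 and control 2 in 15 of 72 members, or 20.8%, against 21.2% of all features. The median spread within a group was 0.197 (SD) over the members, from 0.05 for Arl6ip4 to 0.487 for Rab11b, and 0.235 over all features. Scaling the arrays to spike-in control spots instead moved the median of all features by −0.351, so directions below are relative to the array's 75th percentile.

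Of the 72 trafficking genes, 3 passed the test and 69 did not. Arl11, a small GTPase of the Arl family known from macrophages, fell 4.42-fold (adjusted p = 0.000248), Rab3il1, an exchange factor that activates Rab GTPases, fell 1.67-fold (0.0373), and Rab26, a Rab of secretory granules, rose 1.92-fold (0.0203). The share called was 4.17%. Over all features it was 6.63% (2.89% higher, 3.74% lower), and over those with a symbol 8.69% (3.39% higher, 5.3% lower). The share of the members was the smaller, but it rests on 3 genes, and the number called ran from 0 to 13 across settings. The median change of the 72 was 0.04, against 0.03 over all features, with 41 members above 0 and 31 below. Without adjustment 18 members had p under 0.05, where 22.1% of all features did. The groups did not overlap for 26 members, 14 with LIPUS above and 12 with LIPUS below, which is 36.1% against 27.2% of all features (14.4% above, 12.7% below) and 33% of those with a symbol, as all members have.

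A gene that does not pass may still differ, so the intervals show how large a change the data allow. For 63 of 72 members, or 87.5%, the 95% interval of the change lay within 2-fold in both directions, against 82.5% of all features. It lay within 1.5-fold for 29 members, or 40.3%, against 30% of all features and 33.8% of those with a symbol. The 9 members whose interval reached beyond 2-fold were Arl11, Rab26, Rab3il1, Rab27b, Snx20, Snx24, Sec31a, Rab7a and Rab11b. The plot of changes by role shows every member with its interval.

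**Figure D1:**
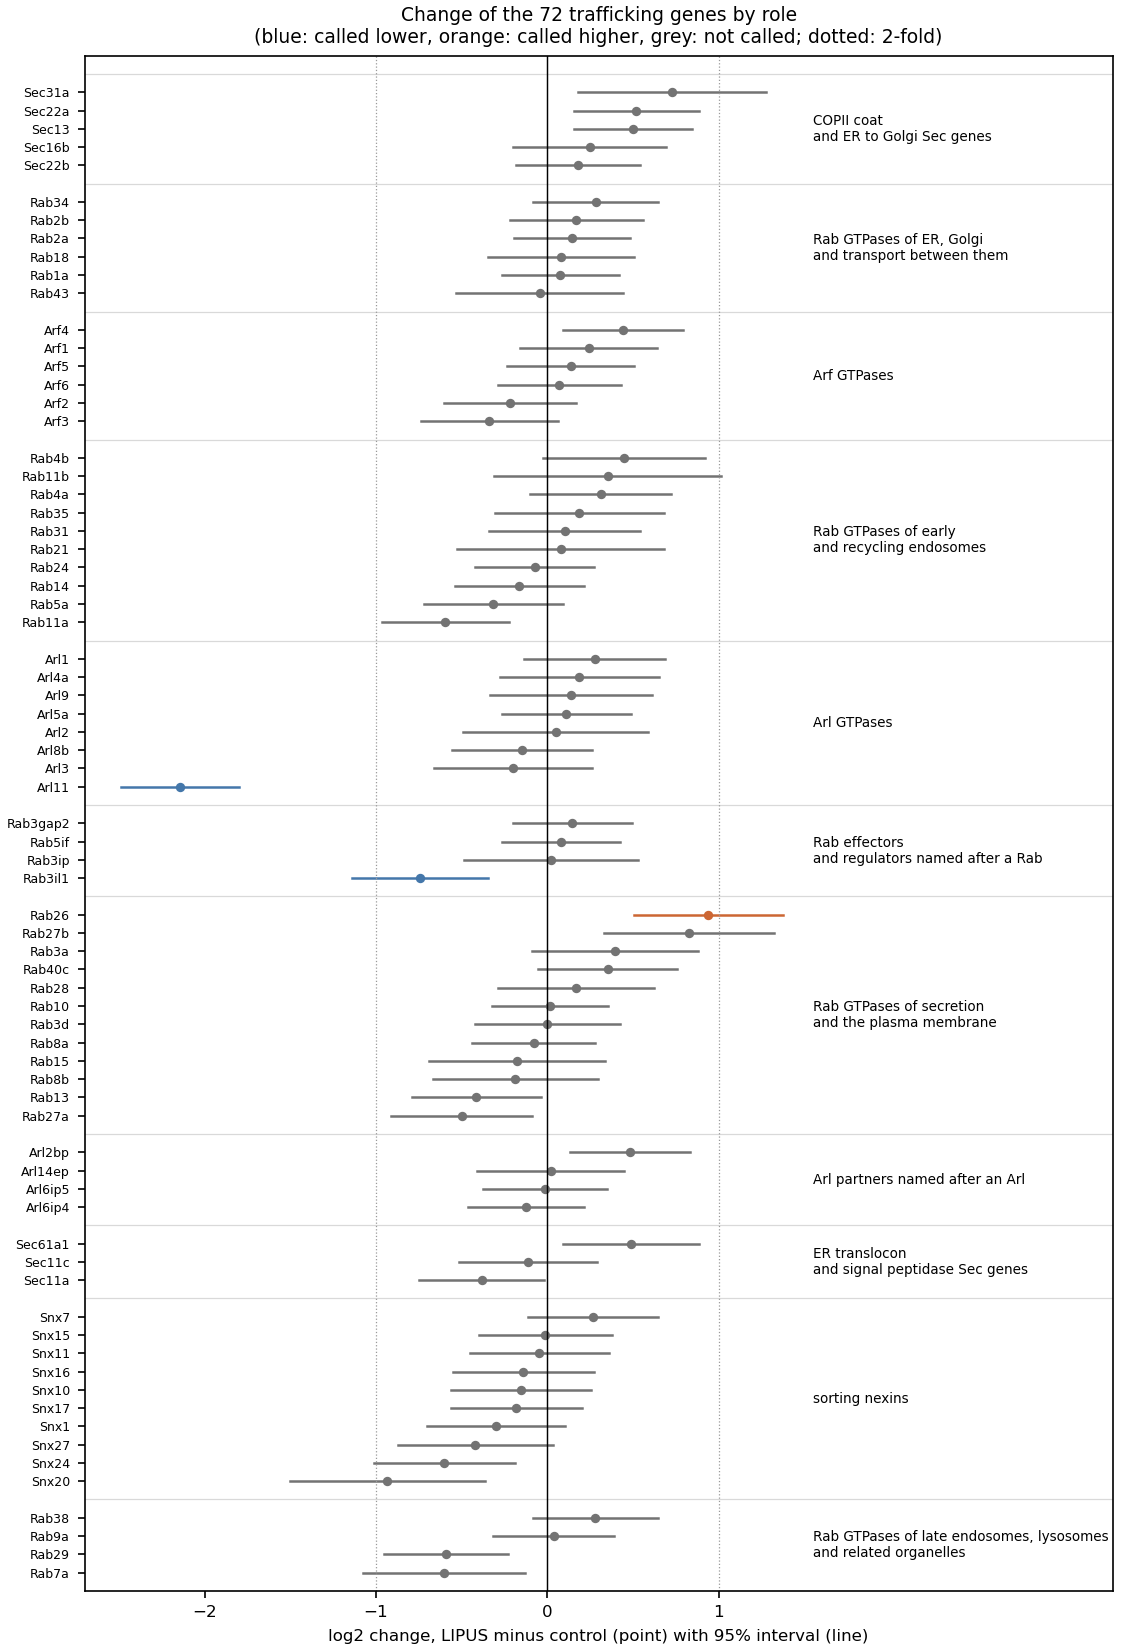
Log2 change, LIPUS minus control, of the 72 trafficking genes (points) with the 95% interval from limma (lines), grouped by role, and with dotted lines at 2-fold. Arl11 lies at −2.14, apart from the other members, which run from −0.93 (Snx20) to 0.94 (Rab26). All 5 COPII and ER to Golgi Sec genes lie above 0, and 9 of 10 sorting nexins lie below it. Of 21847 features tested, 11799 lie above 0 and 10048 below.

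Among the Arl GTPases, 1 of 8 measured fell and 7 did not pass, with a median change of 0.08. Arl11 (NM_001013433) encodes a GTPase also known as a candidate tumour suppressor and as a regulator of macrophage activation. The 3 controls read 1.71, 1.68 and 1.52, and the 3 LIPUS arrays −0.46, −0.58 and −0.47. All LIPUS arrays were low and the groups lay far apart compared with the spread within either. In brightness above background this was 2941, 2313 and 2874 against 496, 357 and 434. The means were 1.64 ± 0.10 and −0.50 ± 0.07 (SD, n = 3 each), a change of −2.14 ± 0.16 (SE) with a 95% interval from −2.49 to −1.80. Among all features 20 had a larger fall, 6 of them with a symbol, and 9 features including Arl11 had a p as small. A second probe of Arl11, kept but not used for the gene, read 1.09, 1.04 and 0.95 in control and −1.20, −0.74 and −1.54 in LIPUS, a change of −2.19 ± 0.21 (SE, adjusted p = 0.000772 with all probes tested separately). Both probes thus gave the same direction and nearly the same size. No omission of a single array took the adjusted p of Arl11 above 0.00328. Against control 3, the 1 control on the slide of the LIPUS arrays, the change was −2.03. Its adjusted p was 0.0198 with slide as a fixed block and 0.0732 with control 1 and control 2 left out, in a fit that called 0 of 21847 features with limma and in which 3339 had an unadjusted p under 0.05.

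The other Arl GTPases ran from −0.20 (Arl3, a GTPase of ciliary cargo release) to 0.28 (Arl1, a GTPase that recruits golgins to the trans-Golgi). Arl1 (NM_022385) read 2.98, 2.44 and 2.84 in control and 3.14, 2.98 and 2.97 in LIPUS, with groups that overlap (adjusted p = 0.418), and its other probe gave 0.30. Arl8b, which moves lysosomes outward along microtubules, gave −0.15 at one probe and 0.26 at the other. The Arl partners included 0 called of 4. Arl2bp (NM_001024906), which binds Arl2, read 2.32, 2.10 and 2.12 in control and 2.59, 2.72 and 2.68 in LIPUS, a change of 0.48 ± 0.16 (SE, adjusted p = 0.105). Here every LIPUS array lay above every control array, but the difference did not pass. Arl6ip4 varied least of all members and read 4.59 to 4.63 in control and 4.42 to 4.55 in LIPUS, a change of −0.12 ± 0.15 (SE, adjusted p = 0.671).

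Of the 6 Arf GTPases, which recruit COPI and clathrin adaptor coats to the Golgi and, in the case of Arf6, act at the plasma membrane, none was called (limma, with Arf4 at an unadjusted p under 0.05). Arf4 (NM_024151), an ER to Golgi Arf, read 5.34, 5.40 and 5.41 in control and 5.85, 5.95 and 5.68 in LIPUS, with no overlap, a change of 0.44 ± 0.16 (SE, adjusted p = 0.133). Its other probe gave 0.55. Arf3 (NM_080904), a trans-Golgi Arf, read 4.16, 3.66 and 3.87 in control and 3.56, 3.46 and 3.66 in LIPUS, a change of −0.34 (adjusted p = 0.306) with −0.34 at its other probe too. The Arf1 probe was at the scanner's upper limit on all 6 arrays, so its 0.24 comes from the scaling. A second Arf1 probe, below that limit on every array, read 3.34, 3.41 and 3.76 in control and 4.18, 3.88 and 4.04 in LIPUS, a change of 0.53 (adjusted p = 0.115 with all probes tested separately). Arf5 was at the limit on 2 arrays. Arf2 gave −0.22 and Arf6 by 0.07.

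Of 12 Rab GTPases that act in secretion and at the plasma membrane, 1 rose and 11 did not pass, with a median change of 0.01. Rab26 (NM_133580), a Rab of secretory granules and synaptic vesicles, read 0.96, 0.92 and 0.53 in control and 1.98, 1.49 and 1.76 in LIPUS. Every LIPUS array lay above every control array, with control 3 the lowest. The change was 0.94 ± 0.19 (SE), with a 95% interval from 0.51 to 1.38. The call of Rab26 ended with slide as a fixed block (1.21, adjusted p = 0.0630), under spike-in scaling (0.59, 0.0974), and without control 1 (0.0509), LIPUS 1 (0.0834) or LIPUS 3 (0.0682). It also ended with plain background subtraction, with no filter on dim probes, and within the slide that holds both groups. In each of those settings 0 members were called higher.

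Rab27b (NM_053459) and Rab27a (NM_017317), which dock secretory granules and exosome-bearing endosomes at the plasma membrane, lay on opposite sides of 0. Rab27b read −1.25, −0.66 and −0.44 in control and 0.00, 0.21 and −0.07 in LIPUS, a change of 0.83 ± 0.22 (SE, adjusted p = 0.0563). The controls spread widely and the LIPUS arrays all lay above them. Its other probe gave 0.51. In the authors' deposited value table, which was analysed as an alternative, Rab27b passed (1.15, adjusted p = 0.0168), and it did so without control 3 (1.00, 0.0337), but with slide as a fixed block the change was 0.49 (0.414). Rab27a read −1.49, −1.10 and −1.41 in control and −1.59, −1.99 and −1.91 in LIPUS, a change of −0.50 ± 0.18 (SE, adjusted p = 0.147), and was above background on 2 of the LIPUS arrays. Rab13, a Rab of cell junctions, gave −0.41 (adjusted p = 0.186). Rab3a and Rab40c gave 0.40 and 0.35, and Rab10, Rab3d and Rab8a gave 0.01, 0.00 and −0.08. In the authors' deposited value table Rab3a passed (1.255, limma adjusted p = 0.0342) and Rab40c gave −0.507. On their dimmest arrays Rab3a and Rab40c lay at 1.04 and 0.973 times the background limit.

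**Figure D2:**
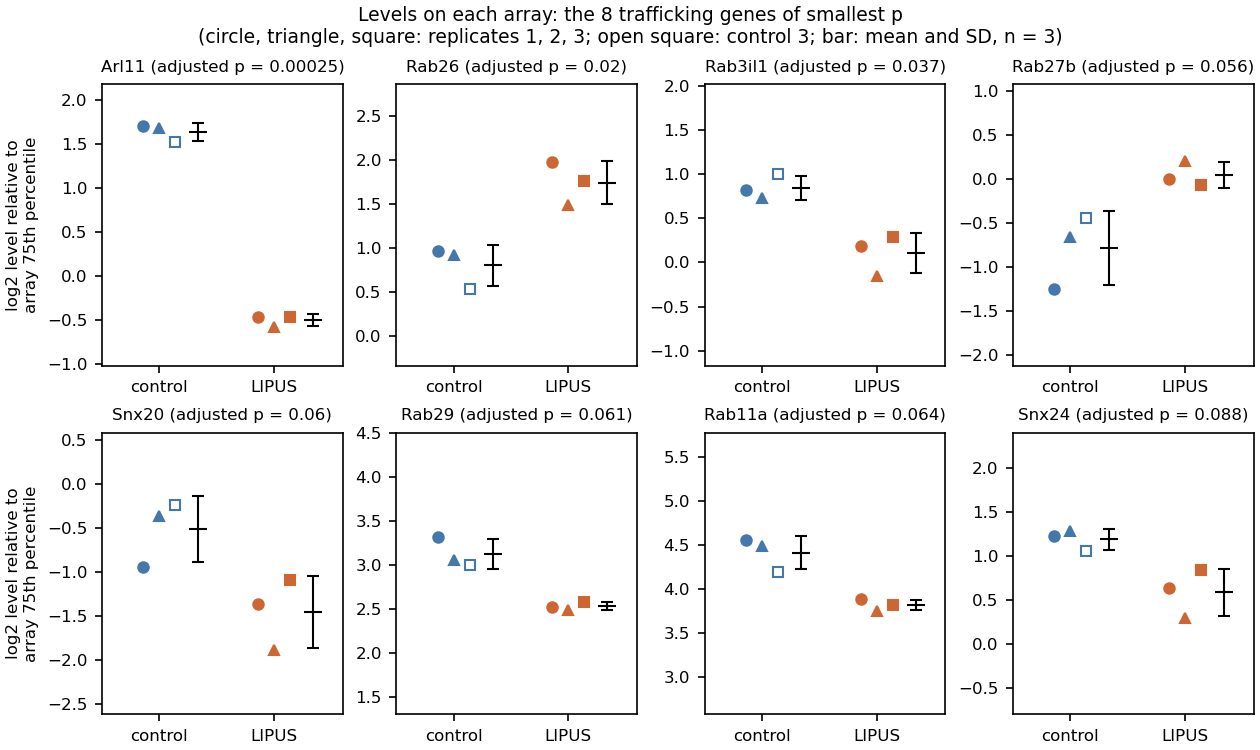
Log2 level relative to the array's 75th percentile on each of the 6 arrays for the 8 members with the smallest p, control in blue and LIPUS in orange, with mean and SD (n = 3) in black. Each panel spans the same range of log2 units. The 2 groups do not overlap in any of the 8 panels, and the gap is widest for Arl11 (1.52 as the lowest control level and −0.46 as the highest LIPUS level).

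Of the 4 Rab effectors and regulators named after a Rab, 1 fell. Rab3il1 (NM_134411), an exchange factor for Rab3 and Rab8 that loads them with GTP, read 0.82, 0.73 and 1.00 in control and 0.19, −0.15 and 0.29 in LIPUS. All LIPUS arrays lay below all controls. The change was −0.74 ± 0.18 (SE), with a 95% interval from −1.14 to −0.34. This call was not stable: it ended whichever single array was left out, with adjusted p from 0.0613 to 0.137, and with slide as a fixed block (−0.89, adjusted p = 0.124). Rab3il1 also did not pass in the authors' deposited value table (−1.05, limma adjusted p = 0.111), with plain background subtraction or with no filter on dim probes. The related exchange factor Rab3ip gave 0.02, Rab5if gave 0.08, and Rab3gap2 (NM_001040154), a subunit of a complex that acts on Rab3 and Rab18, gave 0.15 (adjusted p = 0.623).

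The 250 bases before the RefSeq start of Rab3il1 are shown because it is the called member with an entry in the RefSeq promoter table (GRCr8), which lists 61 of the 72 members. They are followed by those of Sec13, Sec22a and Arf4. These are 3 of the ER to Golgi transport genes whose LIPUS arrays all lay above the controls without passing. Others of that kind, Sec31a and Sec22b among them, have entries but are not shown. The sequences shown lie at chr1:216087654-216087903 on the plus strand, chr4:148446736-148446985 on the minus strand, chr11:78907694-78907943 on the plus strand and chr16:1903186-1903435 on the plus strand. Each is written 5′ to 3′ in the direction of the gene, with every match to the motifs searched, on either strand, in capitals.
Rab3il1: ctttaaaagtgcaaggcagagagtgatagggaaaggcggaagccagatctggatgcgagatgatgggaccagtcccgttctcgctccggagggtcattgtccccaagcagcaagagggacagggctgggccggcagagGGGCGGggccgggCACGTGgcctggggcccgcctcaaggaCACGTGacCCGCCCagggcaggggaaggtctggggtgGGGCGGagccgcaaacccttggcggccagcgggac
Sec13: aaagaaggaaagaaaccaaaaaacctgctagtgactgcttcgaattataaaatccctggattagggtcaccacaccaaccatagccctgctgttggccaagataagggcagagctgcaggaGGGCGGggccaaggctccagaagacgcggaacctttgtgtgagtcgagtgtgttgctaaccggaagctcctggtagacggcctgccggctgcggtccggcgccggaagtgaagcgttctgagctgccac
Sec22a: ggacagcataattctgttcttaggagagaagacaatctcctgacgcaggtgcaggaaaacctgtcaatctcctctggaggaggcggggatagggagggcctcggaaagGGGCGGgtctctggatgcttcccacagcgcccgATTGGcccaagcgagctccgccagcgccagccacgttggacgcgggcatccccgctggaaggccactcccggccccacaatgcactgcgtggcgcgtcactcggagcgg
Arf4: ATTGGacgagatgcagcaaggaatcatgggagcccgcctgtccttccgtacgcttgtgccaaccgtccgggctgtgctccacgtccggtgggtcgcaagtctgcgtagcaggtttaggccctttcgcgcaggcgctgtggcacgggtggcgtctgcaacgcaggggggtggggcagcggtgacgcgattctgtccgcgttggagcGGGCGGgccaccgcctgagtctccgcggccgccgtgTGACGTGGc
The motif of the E-box was CACGTG. The core shared by ETS and PU.1 sites was GAGGAA. The AP-1 site was searched as TGANTCA. The cyclic AMP response element was TGACGTCA, and the unfolded protein response element was TGACGTGG. The CCAAT box has its own letters as its name, and the GC box was GGGCGG. No motif contains another. The Rab3il1 sequence holds 2 E-boxes, which start 99 and 72 bases before the RefSeq start, and 3 GC boxes. Those of Sec13 and Sec22a hold 1 GC box each, and Sec22a a CCAAT box as well. The Arf4 sequence holds the unfolded protein response element, which starts 9 bases before the RefSeq start, along with 1 CCAAT box and 1 GC box. Over the 61 members an E-box was present in 8, or 13.1%, against 8.72% of 4654 tested genes and 5.79% of 27457 promoters in the table. The unfolded protein response element was present in 2 members (Arf1 and Arf4), or 3.28%, against 0.817% of tested genes and 0.55% of all. A GC box was present in 51 members, or 83.6%, against 57.8% and 32.4%. The GAGGAA core was present in 7 members, or 11.5%, against 24.9% and 23.2%, the CCAAT box in 21, or 34.4%, against 37% and 34.3%, AP-1 in 6, or 9.84%, against 4.94% and 6.36%, and the cyclic AMP element in 0, against 2.86% and 1.7%. The median GC content was 63.6% for the members, 59.6% for tested genes and 52% for all. These matches describe letters and carry no test.

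Rab GTPases of early and recycling endosomes, with Rab4, Rab5, Rab11, Rab14, Rab21, Rab22-like Rab31 and Rab35 among them, included 0 called of 10 (limma, 1 at an unadjusted p under 0.05) and had a median change of 0.09. Rab11a (NM_031152), the main Rab of recycling endosomes, read 4.55, 4.48 and 4.19 in control and 3.88, 3.75 and 3.81 in LIPUS, a change of −0.60 ± 0.17 (SE, adjusted p = 0.0642). All LIPUS arrays lay below all controls, with control 3 nearest to them. Its other 2 probes gave −0.30 and −0.68. With slide as a fixed block the change was −0.38 (adjusted p = 0.345), and with median centring it passed (−0.65, 0.0469). Its close relative Rab11b gave 0.35 with the widest spread of all members. Rab4b (NM_017355), a Rab of fast recycling, read 0.09, 0.61 and 0.88 in control and 1.04, 0.97 and 0.91 in LIPUS, a change of 0.45 (adjusted p = 0.248) that was 0.10 against control 3 alone. Rab5a, the Rab of early endosome fusion, gave −0.31 (adjusted p = 0.349), but 0.30 in the authors' deposited value table. Rab21 read 2.66 and 2.74 on control 1 and control 2 but 1.65 on control 3, against 2.42 to 2.44 in LIPUS.

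Rab GTPases of late endosomes and lysosomes included 0 called of 4 (limma, 2 at an unadjusted p under 0.05). Rab29 (NM_133590), a partner of the kinase Lrrk2 at lysosomes and the Golgi, read 3.32, 3.06 and 3.00 in control and 2.52, 2.49 and 2.58 in LIPUS, a change of −0.59 ± 0.16 (SE, adjusted p = 0.0608). The LIPUS arrays were close together and below all controls, also against control 3 alone (−0.46). Rab7a (NM_023950), which drives the fusion of late endosomes with lysosomes, read 2.01, 1.98 and 1.31 in control and 1.23, 1.07 and 1.18 in LIPUS, a change of −0.60 ± 0.21 (SE, adjusted p = 0.129). Control 3 lay close to the LIPUS arrays, and against it alone the change was −0.15. Once control 3 was omitted, which leaves no slide with both groups, Rab7a passed (−0.83, adjusted p = 0.0198). Rab38, of lysosome-related organelles, gave 0.28 (adjusted p = 0.351) and Rab9a, of transport from late endosomes to the Golgi, gave 0.04.

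Of 10 sorting nexins 9 lay below 0, against 10048 of 21847 features, with a median of −0.17. Among these nexins 0 were called (limma, 2 at an unadjusted p under 0.05). Snx20 (NM_001024999), which binds the leukocyte adhesion receptor PSGL-1, read −0.94, −0.37 and −0.24 in control and −1.37, −1.89 and −1.09 in LIPUS, a change of −0.93 ± 0.25 (SE, adjusted p = 0.0597). It was above background on 2 of 3 LIPUS arrays, so its size is uncertain. Snx20 passed with median centring (−0.99, 0.0470) and in the authors' deposited value table (−2.02, 0.0425). With slide as a fixed block it did not pass (−1.21). Snx24 (NM_001008364) read 1.23, 1.29 and 1.06 in control and 0.64, 0.30 and 0.84 in LIPUS, a change of −0.60 ± 0.18 (SE, adjusted p = 0.0883), and its other probe gave −0.30. Snx27, which returns receptors from endosomes to the surface, gave −0.42 (adjusted p = 0.257), with −0.84 against control 3 alone and 0.01 in the authors' deposited value table. Snx1, a retromer partner, gave −0.30, Snx10, needed by osteoclasts for bone resorption, gave −0.15 (adjusted p = 0.663), and Snx7, the only sorting nexin above 0, gave 0.27. The number of sorting nexins below 0 did not stay at 9 in other settings: with slide as a block 2 lay above 0, and with LIPUS 3 omitted 4 did.

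In the ER to Golgi step, all 5 measured Sec genes lay above 0, against 11799 of 21847 features, with a median change of 0.50. For 4 of them (80%) the groups did not overlap, against 27.2% of all features and 33% of those with a symbol. Still, 0 were called (limma, 3 at an unadjusted p under 0.05). No Sec23 or Sec24 gene was matched to a probe. Sec13 (NM_001006978), of the outer COPII cage, read 3.89, 3.76 and 3.68 in control and 4.22, 4.33 and 4.27 in LIPUS, a change of 0.50 ± 0.15 (SE, adjusted p = 0.0904). Its partner Sec31a (NM_033021) read 0.04, −0.47 and 0.46 in control and 0.62, 1.02 and 0.58 in LIPUS, a change of 0.73 ± 0.24 (SE, adjusted p = 0.116). Both outer coat genes were higher on every LIPUS array, Sec31a by less against control 3 alone (0.28). Sec22a (NM_057147), an ER protein related to the SNARE Sec22b, read 0.40, 0.51 and 0.69 in control and 1.12, 1.10 and 0.93 in LIPUS, a change of 0.52 ± 0.16 (SE, adjusted p = 0.0946). Sec16b and Sec22b gave 0.25 and 0.18. Under spike-in scaling the median of the 5 was 0.15 and 3 lay above 0. With slide as a fixed block it was 0.36 and all 5 lay above 0.

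The Rab GTPases of the ER and Golgi gave smaller values, from −0.04 (Rab43) to 0.28 (Rab34), with 0 called of 6 (limma, 0 at an unadjusted p under 0.05). Rab1a, which acts between ER and Golgi, gave 0.08 ± 0.15 (SE, adjusted p = 0.811) with a 95% interval from −0.27 to 0.42. Rab34 (NM_001012140) read 1.42, 1.29 and 1.64 in control and 1.73, 1.70 and 1.76 in LIPUS (adjusted p = 0.346), and Rab2b (NM_001037645) gave 0.17 (adjusted p = 0.612). Of the 3 genes of the ER entry step, 0 were called (limma, 2 at an unadjusted p under 0.05). Sec61a1 (NM_199256), the channel subunit, read 0.02, 0.25 and 0.48 in control and 0.83, 0.80 and 0.59 in LIPUS, a change of 0.49 ± 0.18 (SE, adjusted p = 0.140). Sec11a (NM_031723), a signal peptidase subunit, read 4.56, 4.75 and 4.45 in control and 4.34, 4.12 and 4.16 in LIPUS, a change of −0.38 ± 0.16 (SE, adjusted p = 0.207). These 2 thus lay on opposite sides of 0, and Sec11c, the other catalytic signal peptidase subunit, gave −0.11.

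Other genes of membrane traffic, from lists that hold no member, gave 6 higher and 6 lower of 140 measured, with a median of 0.09. The share called, 8.57%, was near the 8.69% of all features with a symbol. Coat, cargo receptor and vesicle genes of the ER to Golgi route included 4 higher and 0 lower of 23, with 21 above 0 and a median of 0.33. Over all features, 2.89% were called higher (3.39% of those with a symbol) and 11799 of 21847 lay above 0. Tmed3 (NM_001004249), a cargo receptor of COPI and COPII vesicles, rose by 0.95 ± 0.15 (SE, adjusted p = 0.00574), and the glycoprotein cargo receptor Lman1 (NM_053886) by 0.87 ± 0.16 (0.0127). The receptors that return ER proteins from the Golgi, Kdelr2 (NM_001013122) and Kdelr1 (NM_001017385), rose by 0.79 ± 0.16 (0.0191) and 0.67 ± 0.17 (0.0489). Of genes of signal recognition and partners of the translocon, 12 of 13 lay above 0 with a median of 0.29, but the 0.24 of Ssr4 and of Rpn1, at the scanner limit on all 6 arrays, comes from the scaling. Ssr1 (NM_001008891), a translocon-associated subunit, rose by 1.06 ± 0.18 (SE, adjusted p = 0.00938). Under spike-in scaling the medians of these lists were −0.02 and −0.06, and with slide as a fixed block 0.31 and 0.46, where 0 of their genes were called (limma, with 121 features called higher over the whole table).

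Of 15 regulators of Arf, 1 rose, 2 fell and 12 did not pass, and of 19 regulators of Rab, 1 fell and 18 did not pass. Arfgap1 (NM_145090), which turns off Arf1 on Golgi membranes, rose by 0.65 ± 0.16 (SE, adjusted p = 0.0433). Adap2 (NM_020101), a GAP of Arf6, fell by 1.03 ± 0.24 (0.0347), and by 1.51 against control 3 alone with slide as a fixed block (0.0476). Unc119 (NM_017188), a lipid-binding carrier and partner of Arl3, fell by 0.85 ± 0.16 (0.0125), and Myo5a (NM_022178), a myosin motor recruited by Rab27a and Rab11a, by 0.82 ± 0.17 (0.0199). Among 23 clathrin and adaptor genes 21 did not pass, while Dab2 (NM_024159), an endocytic adaptor, fell by 1.09 ± 0.16 (0.0047) and Ehd4 (NM_139324), an ATPase of recycling endosomes, by 1.05 ± 0.17 (0.00742). Of 33 SNARE and fusion genes, Vamp8 (NM_031827), of late endosomes, fell by 0.61 ± 0.15 (0.0433) and 32 did not pass. Retromer, HOPS and ESCRT genes had 0 called of 14 (limma, 1 at an unadjusted p under 0.05). Of these 12 genes, Dab2, Tmed3, Ehd4 and Ssr1 kept their call in each fit that omitted 1 array. Only Adap2 passed once slide entered the fit as a fixed block. There Dab2 gave −1.13 (limma adjusted p = 0.0589), Tmed3 1.00 (0.0547), Ehd4 −1.21 (0.0532) and Ssr1 0.86 (0.136). Under spike-in scaling Tmed3 missed the threshold too (0.60, 0.0643), while Dab2, Ehd4 and Ssr1 passed. For Unc119 the call ended when control 1 or LIPUS 1 was omitted (adjusted p at most 0.0552), and for Lman1 when control 1, LIPUS 1 or LIPUS 2 was (at most 0.0598). That of Myo5a ended when control 1 or a single LIPUS array was omitted (at most 0.0857), and that of Adap2 for each of these and for control 3 (at most 0.120). Kdelr2, Arfgap1, Vamp8 and Kdelr1 kept it only when control 3 was the array omitted (adjusted p otherwise reached 0.0754, 0.137, 0.145 and 0.161). The last 3 of these also missed the threshold with replicate number as a block (0.0767, 0.0847 and 0.0881).

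**Figure D3:**
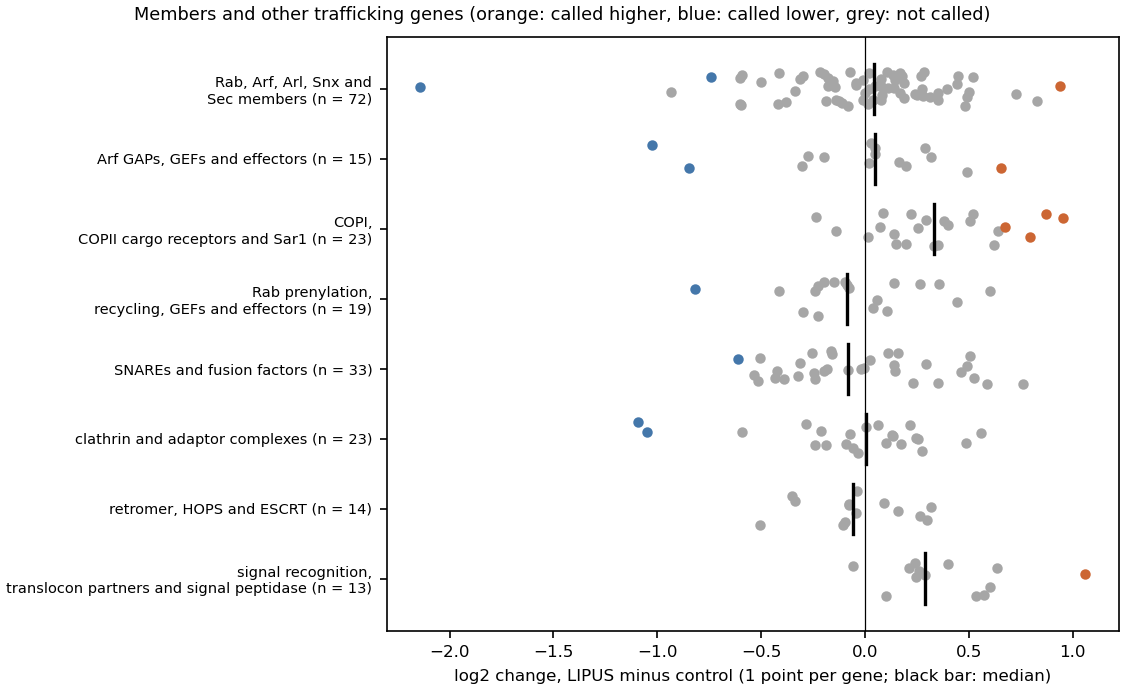
Log2 change, LIPUS minus control, of each of the 72 members and of 140 other trafficking genes by list, with the list median as a black bar, called genes in orange (higher) or blue (lower) and others in grey. The 4 called genes of the COPI and COPII list and the 1 of the signal recognition list lie to the right of 0. To the left lie the 2 of the clathrin list and 1 each of the SNARE and Rab regulator lists. The Arf regulator list has 1 called gene to the right and 2 to the left.

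Markers of the cell types in the culture differed between the groups as well. Of 28 macrophage and monocyte markers 20 were measured, 9 fell and 1 rose. The summed level of that list, in multiples of the array's 75th percentile, was 686 to 837 in control and 581 to 633 in LIPUS, with 7 of its probes at the scanner limit on 1 or more arrays. Among its defining genes Adgre1 fell by 1.32 ± 0.17 (SE, adjusted p = 0.00218) and Csf1r by 0.98 ± 0.21 (0.0223), while Cd68, at the scanner limit on 3 arrays, gave −0.02. Of 19 osteoblast and osteocyte markers 14 were measured, 6 rose and 0 fell, with a summed level of 422 to 517 in control and 614 to 710 in LIPUS. In that list 5 genes were at the scanner limit: Bglap, Col1a2, Sparc and Spp1 on all 6 arrays, so that their 0.24 to 0.28 comes mostly from the scaling and the sum is bounded, and the called Mepe on 3 arrays. Of 16 markers of dividing cells 11 were measured, 7 fell and 0 rose, with sums of 36.1 to 43.2 and 22.2 to 22.2. Of 16 endothelial markers 6 were measured and 4 fell, with sums of 8.85 to 9.73 and 4.82 to 5.03. Pecam1 was below the background limit, and Cdh5, Tek and Vwf were not matched to a probe. The part of these shifts in the changes of Arl11, Rab3il1, Rab26 and the ER to Golgi genes was not tested.

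**Figure D4:**
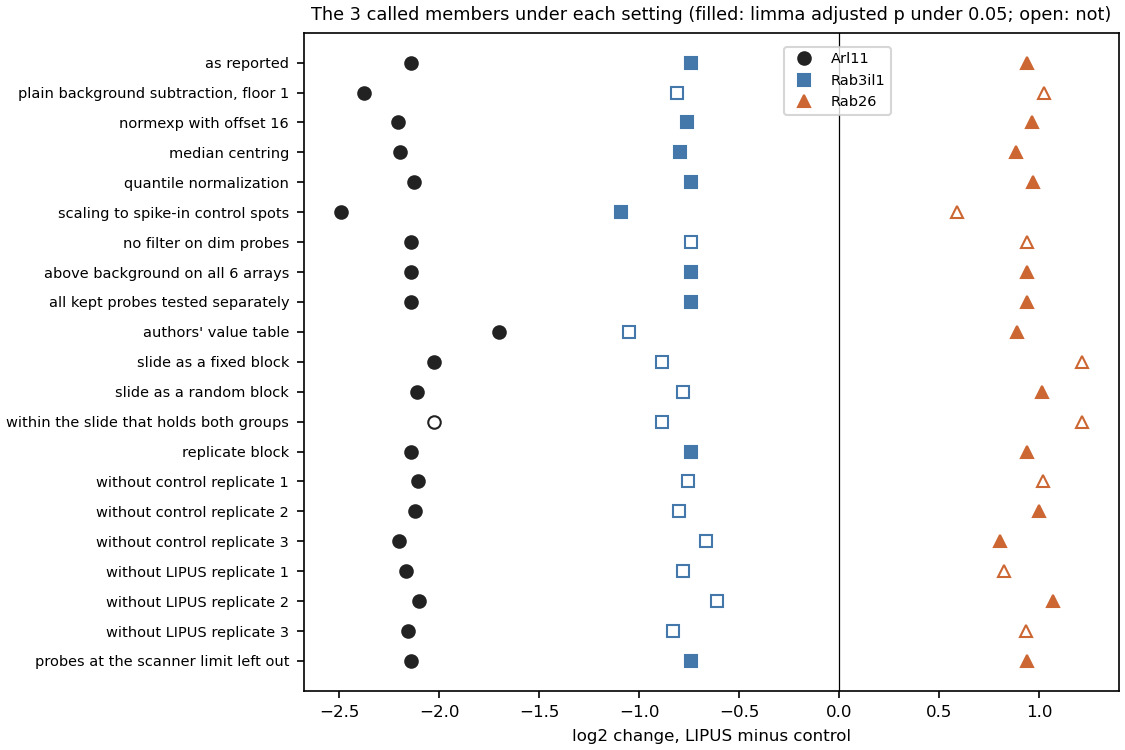
Log2 change of the 3 called members under the reported setting and each alternative, with filled symbols where limma's adjusted p was under 0.05. Arl11 stays between −2.49 and −1.70 and is filled in every row but the one within 1 slide, while Rab3il1 and Rab26 keep their side of 0 and lose the call in several rows.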

How the data were processed

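The members, roles and gene lists were chosen with earlier results of these data known. Per the file headers, each deposited table holds 45220 spots with spot and background brightness as intensity, not normalized, the share of pixels at the scanner limit in percent, and spot positions, treated here as a score. The authors' deposited value table has log2 values (found from the values: 75th percentile 0, column medians −2.85 to −2.37), and how it was made is unknown. Scanner and software: not given in the sources used here.

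In place of the processed signal and background flag of Agilent software, which the tables lack, medians were corrected with limma's normexp (offset 50) and scaled to each array's 75th percentile, and the background limit was the 95th percentile of 153 negative control spots. Probes above it on at least 3 arrays were kept (23260 of 41012). Symbols came from RefSeq (GRCr8) by accession, and each symbol took its brightest probe by mean level. Groups were contrasted in limma 3.58.1 (lmFit, eBayes, two-sided) under R 4.3.3, with Benjamini-Hochberg adjustment. The fit was tested on simulated data with independent noise and no slide effect, so that test does not cover the slides inferred here. Promoter motifs and figures used Python 3.11.15 and matplotlib 3.10.9. The number of arrays limits the precision.

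Genes named by rule were Arl11, all called members and the 2 of smallest p in each role. Other members, the called pathway genes and markers were named after their values were seen. Roles were assigned by hand, and several Rabs act at more than 1 place. Alternatives covered background, offset, scaling, filter, probe choice, value table, slide, replicate number, saturation and each array left out.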

Additional observations from a re-analysis of the deposited data

How the results depend on the processing

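Of the 3 called members, Arl11 kept its call in every setting except within the slide that holds both groups. Counts of members called higher and lower (1 and 2 as reported) became 0 and 1 with plain background subtraction, 3 and 4 with quantile normalization, 0 and 13 with spike-in scaling, 0 and 1 with no filter, 2 and 5 with probes above background on all 6 arrays, 3 and 2 in the authors' value table, 0 and 1 with slide as a fixed block and 0 and 0 within 1 slide (limma, 15 at an unadjusted p under 0.05). They were 1 and 4 with median centring, and 1 and 1 with slide as a random block. Leaving out 1 array gave 0 to 3 higher and 1 to 4 lower. Other trafficking genes called higher and lower (6 and 6) became 12 higher with quantile normalization and 12 with all 6 arrays above background, 1 and 15 with spike-in scaling, 3 and 3 with no filter, 2 lower with plain subtraction, 3 lower in the value table, 0 and 1 with slide as a fixed block, and 0 and 0 within 1 slide. Where a single direction is given, the count in the other direction is not reported here. In the value table Tmed3 (1.09, limma adjusted p = 0.0276), Ssr1 (1.01, 0.0268) and Kdelr2 (0.89, 0.0364) were also called higher. Lman1 (0.64, 0.0691), Arfgap1 (0.78, 0.0514) and Kdelr1 (0.64, 0.175) did not pass there. Nor did Unc119 (−1.02, 0.0546), Myo5a (−0.70, 0.0764) and Vamp8 (−0.39, 0.256). Leaving out 1 array gave 2 to 10 higher and 2 to 8 lower. The cause of these shifts was not tested. Under spike-in scaling 12 of 72 members lay above 0, against 41. The sign of 26 members was the same in all settings. With the replicate number as a block the counts of members were 1 and 2, as reported, and those of other trafficking genes 4 and 5. Deviations from the group means of arrays with the same number correlated by −0.012 to 0.009, against −0.017 to 0.016 for other pairs. With 3 arrays per group, and control 1 and control 2 on another slide by grid tilt, these values cannot decide about pairing. Whether samples of the same number shared an animal or a culture remains unknown. Signal at the scanner limit bounds Arf1 and Arf5.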
